A study of Mus musculus with 157 samples.

Results

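Silica particles and monosodium urate crystals (MSUc) were compared directly in cultured mouse bone marrow-derived macrophages. The comparison took 6 of the 157 samples of the series, all 3 libraries titled Tfe3WT with silica against all 3 titled Tfe3WT with MSUc, and it covered all 24940 genes of the table, of which 12796 were expressed at 1 TPM or more in at least 3 libraries and were tested. Levels are given as TPM, a unit scaled for transcript length and library size that was inferred from the values, since the headers name none. Both particles were given at 250 µg/mL, and the controls received PBS. The labels give neither the time of exposure in this experiment nor the mice behind it, and nothing in them says that replicates were separate cultures or animals, so p-values measure the spread between these libraries, which may be technical. The same contrast was read in 6 Tfe3KO libraries of the same table and, in a second table of wild-type macrophages grown with 16 ng/mL M-CSF, in 2 silica and 3 MSUc libraries.

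The genotype field of all 12 libraries titled Tfe3WT says Tfe3KO, and the titles were followed. Both sides of the comparison share this conflict. Tfe3 itself, on chrX:7762661-7775202 of mm10, does not settle it: its transcript stood at 94.2, 97.1 and 104 TPM in the Tfe3WT libraries with PBS and was still present, at 66.7 to 70.0 TPM, in the Tfe3KO libraries with PBS, and with MSUc it stood at 83.3, 79.7 and 83.1 TPM in Tfe3WT and at 87.3, 84.9 and 85.0 TPM in Tfe3KO. A further silica column of the second table has no labelled sample and was not used. The macrophage markers Csf1r, Adgre1, Cd68, Fcgr1, Mertk, Lyz2 and Itgam were all above 1 TPM in every group, with summed levels of 26223 to 29963 TPM in the silica libraries and 17449 to 18379 TPM in the MSUc libraries. Depth was 9.35 to 13.5 M reads in the silica libraries and 10.5 to 15.9 M reads in the MSUc libraries.

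Urate crystals form in gout and inhaled crystalline silica causes silicosis. Macrophages take up both kinds of particle, and both can damage the phagosome and activate the NLRP3 inflammasome, the complex through which caspase-1 matures interleukin-1 beta. Particle-laden macrophages also secrete chemokines, among them CC chemokines that draw monocytes and CXC chemokines that draw neutrophils. NRF2 is the transcription factor of the antioxidant and heme-degrading programme, and ATF4 and its partners run the integrated stress response to amino acid shortage and related stresses. The comparison shows which of these programmes differed by particle at equal mass.

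With silica 7 of 11 CC chemokine genes and 6 of 7 CXC chemokine genes were higher than with MSUc, as were Il1b, Tnf and Ptgs2. With MSUc 16 of 20 NRF2 targets, 18 of 23 genes of the integrated stress response and 16 of 20 glycolysis genes were higher. No tested NRF2 target, stress response gene or glycolysis gene was called higher with silica, and no CC chemokine or inflammasome gene was called lower. Of the 12796 genes 57.1% were called at a limma adjusted p under 0.05, 4240 of them higher with silica (33.1% of genes tested) and 3061 lower (23.9%), and 295 and 316 of these differed at least 2-fold. After median-of-ratios scaling 3387 were higher and 3804 lower, because the median of all genes, 0.10 on the log2(TPM + 1) scale, moved to 0.00. A call in this comparison was therefore common, and the counts for each list are read against those shares.

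**Figure D1:**
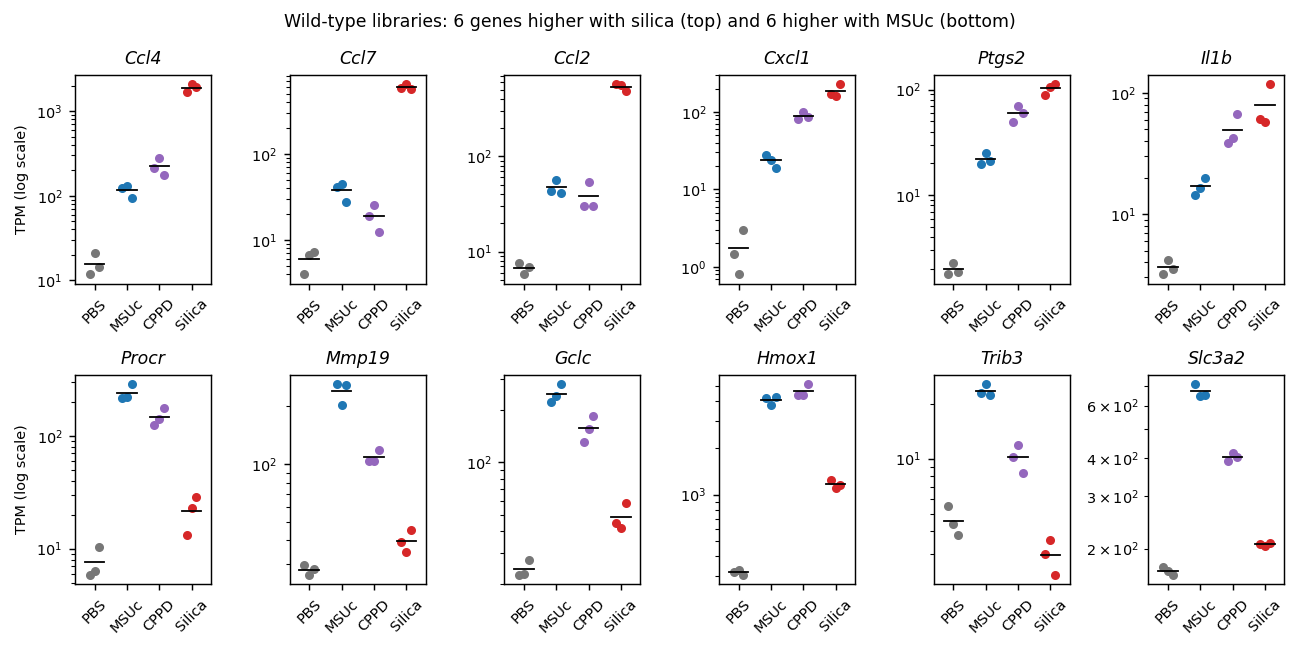
Levels in TPM (log axis) of 12 genes in the wild-type libraries with PBS, MSUc, CPPD and silica; points are libraries and bars are means of 3. The top row holds genes whose silica libraries all lie above the MSUc libraries, such as Ccl4 at 1658 to 2086 against 94.3 to 129.8 TPM, and the bottom row genes whose silica libraries all lie below, such as Procr at 13.2 to 28.6 against 218 to 286 TPM.

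Of the CC chemokine genes 7 of 11 tested were called higher with silica and none lower, with a median difference of 1.14 against 0.10 for all genes tested. Ccl4 (MIP-1beta, chr11:83662584-83664683), a chemokine secreted by activated macrophages, stood at 1658, 2086 and 1917 TPM in the silica libraries and at 123, 129.8 and 94.3 TPM in the MSUc libraries, against 11.8, 21.0 and 14.2 TPM with PBS. Each silica library lay above each MSUc library, and the means differed 16.3-fold (log2 difference 4.03 ± 0.25 SE, limma adjusted p = 1.9e-10). Ccl7, a monocyte chemokine, stood at 588, 651 and 573 TPM with silica and at 41.3, 45.4 and 27.6 TPM with MSUc (3.98 ± 0.30, adjusted p = 2.6e-09). Ccl2, the ligand of CCR2 that draws monocytes, stood at 574, 559 and 481 TPM with silica and at 42.9, 56.8 and 41.5 TPM with MSUc (3.50 ± 0.24, adjusted p = 8.6e-10). The comparisons with PBS share libraries with the direct one, so their values are given side by side. MSUc itself had raised these genes above PBS, by 2.83 ± 0.25 for Ccl4, 2.48 ± 0.30 for Ccl7 and 2.63 ± 0.24 for Ccl2, so that silica stood above a gene already induced. Ccl3 (MIP-1alpha, chr11:83647843-83649378) was the most abundant, at 3278, 3914 and 3605 TPM with silica and 579, 602 and 506 TPM with MSUc (2.68 ± 0.13, adjusted p = 1.2e-11). Ccl6 and Ccl9 differed less, by 0.79 ± 0.10 and 0.79 ± 0.11. Ccl5 (0.75 ± 0.38, adjusted p = 0.098), Ccl8, Ccl22 and Ccl24 did not pass, Ccl17 was not tested, and Ccl12 was called but listed at 0 in all MSUc libraries.

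Among CXC chemokines 6 of 7 were called higher with silica and 1 lower, with a median of 1.44. Cxcl1, a ligand of the neutrophil receptor CXCR2, stood at 172, 159.6 and 229 TPM with silica and at 28.1, 24.1 and 19.1 TPM with MSUc (2.92 ± 0.21, adjusted p = 9.5e-10). Cxcl2, a second ligand of CXCR2, stood at 1218, 1245 and 1178 TPM against 349, 359.7 and 315 TPM (1.83 ± 0.13, adjusted p = 1.3e-09). Cxcl5 was 5.9-fold higher, at 15.7, 10.8 and 20.3 TPM against 3.50, 1.78 and 2.65 TPM. Ppbp, Pf4 and Cxcl16 were higher by 1.44 ± 0.34, 0.90 ± 0.22 and 0.73 ± 0.09. For Cxcl16 both particles lay below PBS (334, 319 and 314 TPM), at 306, 258 and 299 TPM with silica and 183, 170 and 163 TPM with MSUc. Cxcl3 was lower, at 4.21, 2.94 and 6.63 TPM with silica and 7.73, 10.5 and 8.16 TPM with MSUc (-0.85 ± 0.25, adjusted p = 0.006), and it was listed at 0 in all PBS libraries.

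Cxcl1 and Cxcl2 lie near each other on chromosome 5 and were called in the same direction. Their 250 bases before the start site, from RefSeq on GRCm38.p6, are shown because both hold 2 matches to the kappaB motif, searched as GGG, any 2 bases and TTTCC on either strand, in capitals (chr5:90890995-90891244, + strand and chr5:90903649-90903898, + strand):
Cxcl1: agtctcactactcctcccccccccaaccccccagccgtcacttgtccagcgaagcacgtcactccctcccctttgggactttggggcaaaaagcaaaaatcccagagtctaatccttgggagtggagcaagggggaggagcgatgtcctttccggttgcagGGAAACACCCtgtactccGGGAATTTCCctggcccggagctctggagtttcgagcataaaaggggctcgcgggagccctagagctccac
Cxcl2: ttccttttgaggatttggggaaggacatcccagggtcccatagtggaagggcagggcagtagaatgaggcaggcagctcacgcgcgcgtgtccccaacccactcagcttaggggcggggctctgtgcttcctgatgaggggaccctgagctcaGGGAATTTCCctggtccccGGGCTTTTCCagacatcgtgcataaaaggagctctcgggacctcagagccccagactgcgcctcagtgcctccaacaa
The first base of the match nearest the start site lies 71 bases upstream in Cxcl1 and 78 bases upstream in Cxcl2, and the farther match 89 and 97 bases upstream. RefSeq promoters of the counted transcript were found for 5 CXC genes, and 3 hold a match (Cxcl1, Cxcl2 and Cxcl3), against 1.47% of 8716 promoters of tested genes, 1.68% of those of genes called higher and 1.28% of those of genes called lower. A match is a stretch of letters and was not tested as a site, and Cxcl3, which also holds one, was lower with silica.

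Of the inflammasome and interleukin-1 genes 14 of 19 were called higher with silica and 0 lower (median 0.67). Il1b, the pro-form of interleukin-1 beta, stood at 60.9, 57.4 and 118 TPM with silica and at 14.5, 16.4 and 19.9 TPM with MSUc (2.09 ± 0.33, adjusted p = 2.5e-05), and silica replicate 3 was the highest library. Mean TPM of Il1a was 2.93-fold higher (difference of 1.05 ± 0.23 on the log2(TPM + 1) scale). Genes of the machinery moved less: Pycard, the ASC adaptor, stood at 20.2, 19.0 and 19.4 TPM against 7.28, 10.5 and 9.37 TPM (1.04 ± 0.13), the noncanonical caspase gene Casp4 differed by 0.95 ± 0.09 and Casp1 by 0.70 ± 0.08. For Pycard both particles lay below PBS (29.9, 30.8 and 35.0 TPM), MSUc more so. The sensor Nlrp3 differed by 0.33 ± 0.13 (adjusted p = 0.029), the antagonist Il1rn by 0.33 ± 0.14 (adjusted p = 0.055) and the pore-forming Gsdmd by 0.02 ± 0.09 (adjusted p = 0.89).

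Among other mediators Tnf stood at 205, 202 and 215 TPM with silica and at 55.7, 62.7 and 52.1 TPM with MSUc (1.85 ± 0.15, adjusted p = 4.7e-09), and Il6 at 6.85, 7.66 and 13.6 TPM against 1.81, 1.79 and 2.01 TPM (1.80 ± 0.23). Vegfa, the angiogenic factor, ran the other way, at 115, 88.3 and 135 TPM with silica and 275, 242 and 284 TPM with MSUc (-1.25 ± 0.16, adjusted p = 1.9e-06), as did Tgfb1 (-0.77 ± 0.07). In the list of cytokines and growth factors 6 of 19 were called higher and 5 lower, close to the shares of all genes. Ptgs2, inducible cyclooxygenase, stood at 89.8, 106 and 113 TPM with silica and 19.8, 25.2 and 21.0 TPM with MSUc (2.18 ± 0.19, adjusted p = 1.4e-08), while Hpgd, which degrades prostaglandins, was higher by 1.46 ± 0.32 although both particles had lowered it below PBS. Prostaglandin and leukotriene genes as a list gave 5 higher and 2 lower of 13.

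Tlr1, the partner of TLR2, stood at 59.3, 47.9 and 62.6 TPM with silica and at 10.9, 9.51 and 11.5 TPM with MSUc (2.30 ± 0.11, adjusted p = 1.2e-11), and PBS lay between them, at 24.3, 30.9 and 29.1 TPM. Tlr2 was 2.32-fold higher, with an SE of 0.09 on the log2 scale. Mean TPM of the formyl peptide receptor genes Fpr1 and Fpr2 was 10.4-fold and 9.24-fold higher, over low MSUc levels (1.60 to 2.14 and 0.695 to 1.96 TPM). On the log2(TPM + 1) scale, which narrows ratios at low levels, these genes differed by 2.79 ± 0.26 and 2.55 ± 0.20. For them MSUc differed from PBS by 0.20 ± 0.26 and 0.01 ± 0.20, short of the threshold. Among phagocytic and crystal receptors 9 of 17 were higher and 4 lower, with Clec12a, an inhibitory receptor for urate crystals, at 429.9, 470.2 and 433 TPM against 238, 225 and 199.7 TPM (1.01 ± 0.11) and the scavenger receptor Msr1 at 1.18 ± 0.08. The kinase gene Syk was lower (-0.85 ± 0.06).

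Markers of other cell types were higher in the same silica libraries. Of the neutrophil markers 8 of 9 tested were called higher with silica and 0 lower, the 10 in the table summing to 1471 to 2013 TPM with silica and 549 to 725 TPM with MSUc. S100a8 stood at 546, 591 and 599.9 TPM against 169.9, 149 and 194 TPM, Retnlg was higher by 1.91 ± 0.43, and the mature neutrophil marker Ly6g was too low to test. Mast cell markers summed to 16.2 to 21.1 TPM against 4.61 to 6.76 TPM, with 2 of 3 tested called higher (Hdc, histidine decarboxylase, and Cpa3) and Kit not called. Fibroblast markers summed to 767 to 805 TPM against 425 to 585 TPM, with 4 of 7 called higher (2 after median-of-ratios scaling and 0 to 7 over 17 alternatives), and Fgf7, a growth factor made by stromal cells, was 4.48-fold higher. All 4 B cell markers tested and Hba-a1, the 1 erythroid marker tested, were called higher at levels of a few TPM (1 to 4 and 0 to 1 over the alternatives). T cell markers gave no call (1 tested), dendritic cell markers 2 higher and 1 lower of 5, and osteoclast markers 0 higher and 1 lower of 4. In these bulk libraries more cells of a type and more RNA per cell cannot be told apart, and the part of these markers in the chemokine, receptor and interleukin-1 differences was not tested.

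The largest differences toward MSUc were of a mixed kind. Procr, the endothelial protein C receptor (chr2:155751217-155755478), stood at 13.2, 22.9 and 28.6 TPM with silica and at 218, 222 and 286 TPM with MSUc, against 5.89, 6.36 and 10.4 TPM with PBS (-3.48 ± 0.23, adjusted p = 4e-10). Mmp19, a matrix metalloproteinase gene, stood at 39.1, 34.9 and 45.3 TPM with silica and at 261, 205 and 259.6 TPM with MSUc (-2.57 ± 0.10, adjusted p = 6.5e-13). Ppard, the fatty acid-sensing nuclear receptor gene, was 4.63-fold higher with MSUc and lay below PBS with silica (9.90 ± 1.50 against 13.1 ± 1.39 TPM, mean ± SD, n = 3). Vps37b, an ESCRT-I subunit gene, differed by -2.01 ± 0.07. Tox2, Rtn4r, Rassf8, Dusp13, Klhl21, Tmem198b and Serpinb9b were also among the 15 lowest, at -1.97 to -2.31 (for Serpinb9b, -2.03 ± 0.40, MSUc replicate 1 was well below the other 2, at 10.4 against 30.3 and 34.9 TPM). Tmem198b (chr10:128800036-128804447, - strand) overlaps the end of Mmp19 (chr10:128790955-128800827, + strand), and sharing of reads between these genes was not tested. Among the 15 highest the remaining genes were Rpph1, the RNA of ribonuclease P (a noncoding RNA of 324 bases), and Sesn1.

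Set against PBS, 65.8% of all genes were called with silica (28.8% higher and 37.1% lower) and 61.6% with MSUc (20.0% higher and 41.6% lower). Of the 15 lowest genes 15 were called higher with MSUc than with PBS. With silica 10 of the 15 were higher than PBS and 3 lower. Of the 15 highest genes 14 were higher with silica than with PBS, and 8 were also higher with MSUc and 3 lower. Both sets of 15 were chosen on the same silica and MSUc libraries, which favours such counts. They describe the genes and are not a separate result. The 2 sestrin genes, whose products restrain mTORC1, were on opposite sides. Sesn1 stood at 32.1, 33.3 and 31.7 TPM with silica and 8.88, 8.29 and 7.29 TPM with MSUc, both below PBS (101, 102 and 101 TPM), and Sesn2, an ATF4 and NRF2 target, at 5.20, 4.54 and 4.07 TPM with silica and 19.8, 22.0 and 19.8 TPM with MSUc.

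NRF2 targets were called lower with silica in 16 of 20 and higher in 0, against 23.9% of all genes called lower, with a median of -0.64. Gclc, the catalytic subunit of glutamate-cysteine ligase that makes glutathione (chr9:77754535-77794489, counted on a noncoding RefSeq transcript of the gene), stood at 44.5, 41.9 and 58.4 TPM with silica and at 222, 241 and 281 TPM with MSUc (-2.35 ± 0.15, adjusted p = 3.2e-10). Hmox1, heme oxygenase 1 (chr8:75093618-75100593), stood at 1240.5, 1096 and 1148 TPM with silica and at 4186, 3793 and 4268 TPM with MSUc (-1.81 ± 0.09, adjusted p = 1.8e-11). Silica had still raised Hmox1 over PBS, by 1.88 ± 0.09 against 3.69 ± 0.09 with MSUc. Srxn1 (sulfiredoxin), Slc7a11 (the cystine transporter), Gclm (the modifier subunit) and Txnrd1 (thioredoxin reductase) were lower by 1.91 ± 0.19, 1.80 ± 0.22, 1.73 ± 0.21 and 1.51 ± 0.12. The pentose phosphate gene Pgd was lower by 1.06 ± 0.14, whereas G6pdx, of the same pathway, differed by -0.01 ± 0.13, and Txn1, Nqo1 and Me1 did not pass either. Ferritin chains Ftl1 and Fth1 were lower by 0.66 ± 0.09 and 0.51 ± 0.11. For Gclm silica did not differ from PBS beyond the test (0.36 ± 0.21) while MSUc did (2.09 ± 0.21).

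Gclm and Txnrd1, both lower with silica, each hold a match to the core antioxidant response element, spelled TGACNNNGC on either strand, in the 250 bases before the start site, shown in capitals (chr3:122245307-122245556, + strand and chr10:82858956-82859205, + strand):
Gclm: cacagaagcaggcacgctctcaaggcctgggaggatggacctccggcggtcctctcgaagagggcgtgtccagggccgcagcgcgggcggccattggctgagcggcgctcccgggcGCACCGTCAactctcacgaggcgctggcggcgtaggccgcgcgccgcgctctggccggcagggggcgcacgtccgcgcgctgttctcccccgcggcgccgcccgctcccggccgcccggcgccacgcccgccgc
Txnrd1: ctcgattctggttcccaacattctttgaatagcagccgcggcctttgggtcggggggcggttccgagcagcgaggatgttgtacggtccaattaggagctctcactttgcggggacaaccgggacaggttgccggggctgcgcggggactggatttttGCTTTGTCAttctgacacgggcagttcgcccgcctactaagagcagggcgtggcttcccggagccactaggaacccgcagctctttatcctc
Both matches read on the opposite strand, and begin 134 bases before the start site in Gclm and 92 in Txnrd1. RefSeq promoters were found for 15 NRF2 targets, and 3 hold a match (Gclm, Txnrd1 and Prdx1), against 12.2% of 8716 promoters, and 11.5% and 12.7% of those of genes called higher and lower. The promoters used cover 68.1% of tested genes.

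Genes of the integrated stress response were lower with silica in 18 of 23 and higher in 0 (median -0.92). Trib3, a pseudokinase induced by ATF4, stood at 3.01, 3.58 and 2.32 TPM with silica and at 22.9, 25.5 and 22.2 TPM with MSUc (-2.64 ± 0.24, adjusted p = 3.1e-08), and PBS stood at 5.52, 4.38 and 3.84 TPM. Slc3a2, the heavy chain of amino acid exchangers, stood at 208, 203 and 209 TPM with silica and at 707, 648 and 654 TPM with MSUc (-1.69 ± 0.06, adjusted p = 4.5e-13). Chac1, which degrades glutathione, was lower by 1.82 ± 0.24, Cebpb, which encodes the transcription factor C/EBPbeta, by 1.53 ± 0.14, the tRNA synthetase gene Aars by 1.31 ± 0.09 and the factor gene Atf4 itself by 0.80 ± 0.08. Psat1, Phgdh, Psph, Ddit4 and Vldlr did not pass. With MSUc 19 of the 23 were higher than with PBS and 0 lower, and with silica 10 were higher and 4 lower. The promoter of Chac1 is shown because it holds a match to the C/EBP-ATF response element core, spelled TGATGNAA on either strand, in capitals (chr2:119350992-119351241, + strand), 193 bases before the start site:
Chac1: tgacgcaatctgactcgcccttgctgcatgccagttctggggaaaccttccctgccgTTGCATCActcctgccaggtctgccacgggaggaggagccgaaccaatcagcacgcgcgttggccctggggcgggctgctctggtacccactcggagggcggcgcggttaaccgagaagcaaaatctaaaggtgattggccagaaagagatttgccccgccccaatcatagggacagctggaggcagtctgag
RefSeq promoters were found for 20 genes of the list, and 4 hold a match (Chac1, Vldlr, Aars and Gars), against 1.86% of 8716 promoters. The shares were 2.01% and 1.78% for genes called higher and lower. A match was not tested as a site, and Vldlr, which holds one, was not called.

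Glycolysis genes were lower with silica in 16 of 20 and higher in 0 (median -0.78). Hk1, hexokinase, stood at 26.1, 29.7 and 29.3 TPM with silica and 98.0, 100.2 and 101 TPM with MSUc (-1.78 ± 0.07, adjusted p = 5.5e-13), with PBS between the groups at 50.8, 53.8 and 52.6 TPM. Slc2a1, the glucose transporter GLUT1, stood at 81.5, 73.2 and 101 TPM against 276, 269.6 and 307 TPM (-1.74 ± 0.11, adjusted p = 3.7e-10). Aldoa and Pkm were lower by 1.10 ± 0.07 and 0.96 ± 0.07. Gapdh, at 0.405 to 2.00 TPM, and Pgk1 have many near-identical copies and are uncertain.

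**Figure D2:**
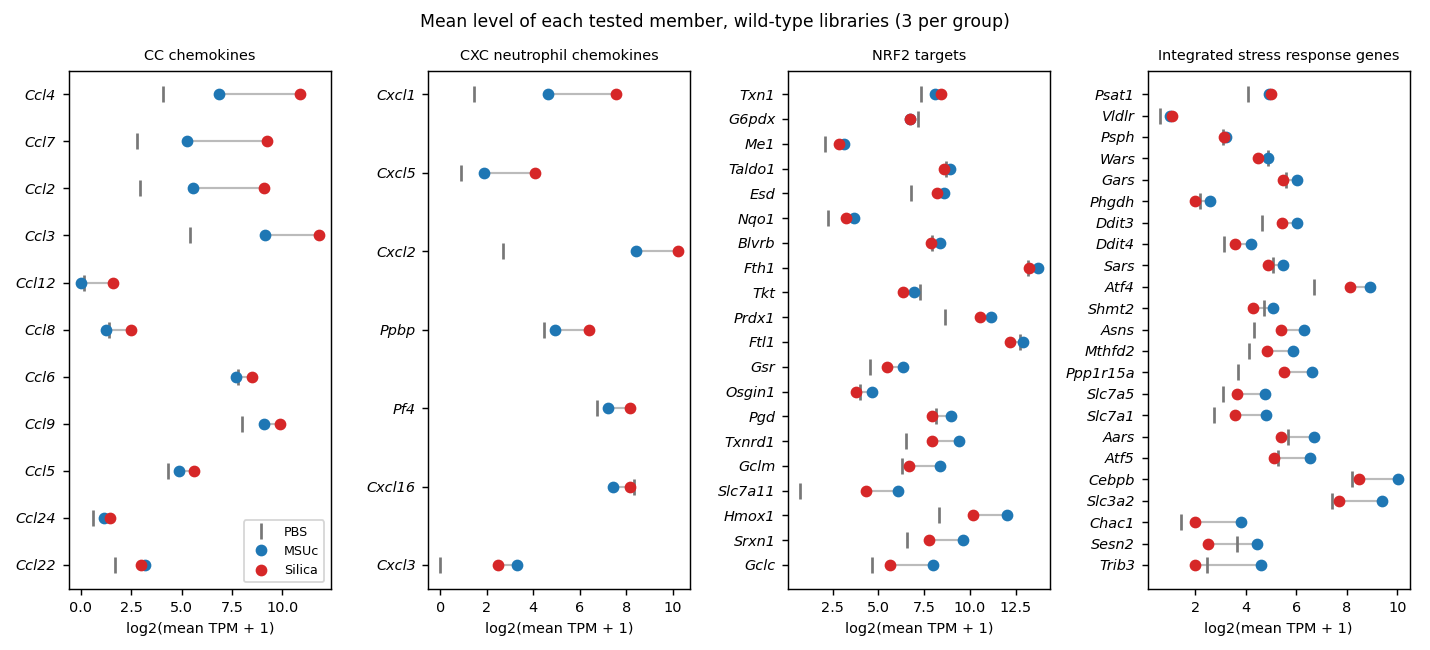
Mean level, log2(mean TPM + 1), of every tested member of 4 lists in the wild-type libraries with PBS (bar), MSUc (blue) and silica (red), 3 libraries each. Silica lies to the right of MSUc for Ccl4, Ccl7, Ccl2 and Ccl3 by 4.03 to 2.68 and to its left for Gclc and Trib3 by 2.35 and 2.64.

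Among genes of the lysosome, V-ATPase subunits gave 6 higher and 4 lower of 18 (5 and 6 after median-of-ratios scaling), which is near the shares of all genes. In the Tfe3KO libraries and in the second table the V-ATPase list gave 10 higher and 5 lower of 18. There 34.4% and 30.3% of all genes were called higher. Tcirg1, a V0 subunit gene, was lower with silica (221, 231 and 216 against 496, 546 and 534 TPM, -1.23 ± 0.08, adjusted p = 2.4e-10) and Atp6v1f higher (0.65 ± 0.06), while Atp6v1h, which both particles raised about equally (206, 201 and 185 against 216, 216 and 199.8 TPM, PBS 45.6 to 51.2 TPM), differed by -0.09 ± 0.11 (adjusted p = 0.51). Lysosomal hydrolases gave 12 higher and 19 lower of 40, lysosomal membrane proteins 8 and 8 of 19, autophagy genes 5 and 13 of 22 and the MiT/TFE and folliculin-Rag genes 3 and 5 of 12. The autophagy receptor gene Sqstm1, also an NRF2 target, stood at 1089.9, 1089 and 1195 TPM with silica and 3021, 3177 and 3328 TPM with MSUc (-1.50 ± 0.07). Tfeb (-0.75 ± 0.09) and Tfe3 (-0.59 ± 0.08) were lower with silica.

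Dot1l, the H3K79 methyltransferase, stood at 50.7, 54.1 and 48.4 TPM with silica and 130.3, 143 and 127 TPM with MSUc (-1.37 ± 0.09, adjusted p = 2.8e-10), and the list of Dot1l and its elongation partners gave 2 higher and 6 lower of 12. Bhlhe40, a bHLH repressor gene, was lower by 0.83 ± 0.11, and its list with the clock genes gave 1 higher and 8 lower of 12. Immediate early factors gave 8 higher and 12 lower of 28 and NF-kappaB subunits and brakes 5 and 8 of 15. The NF-kappaB list thus had more calls lower than higher (median -0.20). Among its 5 members called higher were the brake Tnip3 (1.26 ± 0.11) and Nfkbiz (1.35 ± 0.12).

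Metallothionein genes and the zinc exporter went opposite ways. Mt1 stood at 503, 475 and 416 TPM with silica and 172, 217 and 175 TPM with MSUc (1.30 ± 0.11), and Mt2 at 226, 207 and 168 TPM against 67.5, 77.9 and 59.2 TPM (1.54 ± 0.23). Slc30a1, which exports zinc, was lower with silica (-1.25 ± 0.11). All 3 are known targets of the zinc-responsive factor MTF1. Their list gave 4 higher and 3 lower of 9. The heat shock gene Hspa1a was 2.6-fold higher, and its list gave 9 higher and 2 lower of 17. Endoplasmic reticulum chaperones gave 7 and 2 of 16.

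The macrophage identity list gave 9 higher and 7 lower of 22, near the shares of all genes. Adgre1, which encodes F4/80, stood at 1339.7, 1065 and 1205 TPM with silica and 601, 574 and 590.0 TPM with MSUc (1.03 ± 0.10). Csf1r, the M-CSF receptor, was lower by 0.36 ± 0.11 (adjusted p = 0.0097) and lost its call without silica replicate 2 (-0.30). Purine and urate genes gave 8 higher and 1 lower of 15, with Pnp at 1.00 ± 0.08. Cholesterol synthesis gave 8 and 3 of 20, lipid carriers 5 and 4 of 15, matrix and plasminogen genes 5 and 5 of 19, the BCL2 family 1 and 6 of 11, and AMPK and mTORC1 restraint 3 and 4 of 11. Cell cycle genes gave 10 higher and 0 lower of 20 (6 and 1 after median-of-ratios scaling), at low levels. Interferon-stimulated genes had few calls, 1 higher and 3 lower of 32. Tpt1, a short abundant transcript, spread over 192, 136 and 69.9 TPM with silica and overlapped MSUc (0.56 ± 0.27, adjusted p = 0.081).

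**Figure D3:**
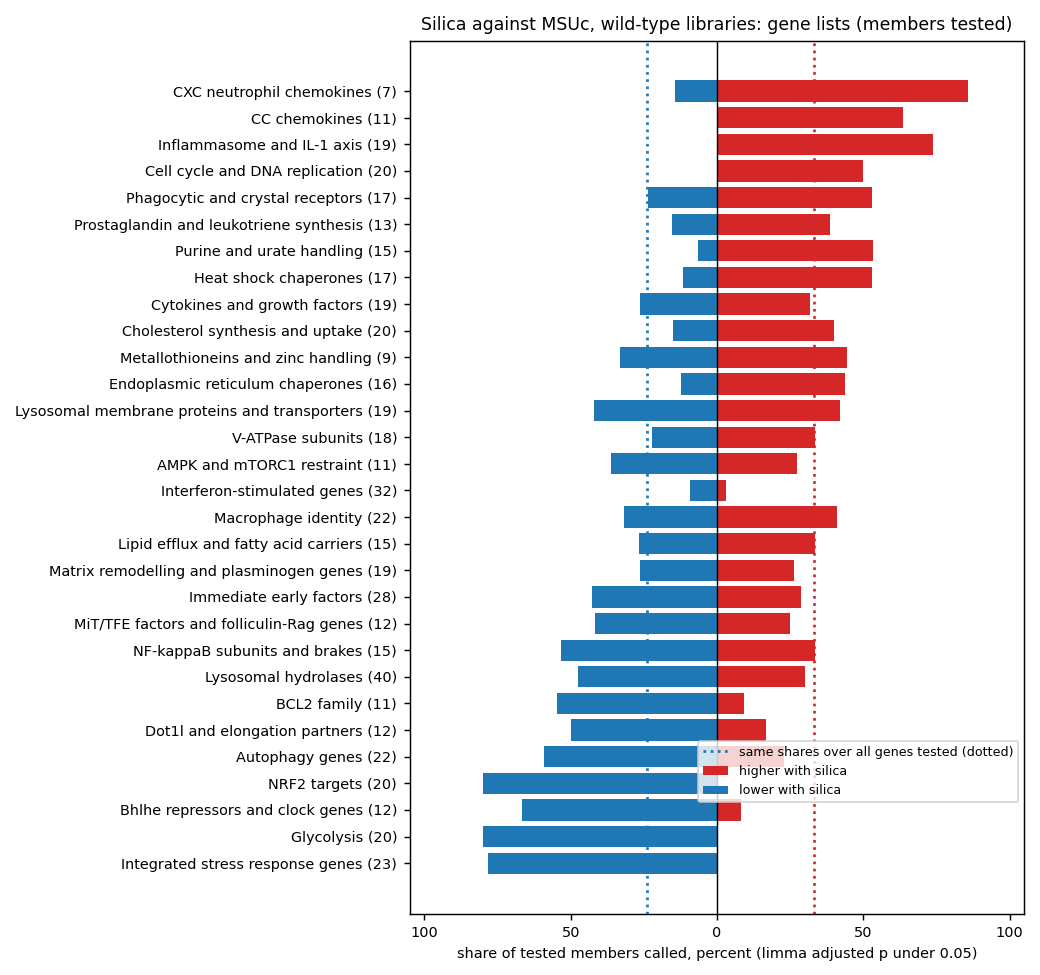
Share of the tested members of each list called higher (red, right) or lower (blue, left) with silica than with MSUc in the wild-type libraries, with the number tested in brackets and the shares over all genes, 33.1% and 23.9%, as dotted lines. The chemokine and interleukin-1 lists lie to the right and the NRF2, glycolysis and stress response lists to the left.

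The Tfe3KO libraries, which share no library with the wild-type contrast but entered the same fit, gave 63.6% of genes called, 4404 higher and 3740 lower with silica (34.4% and 29.2% of genes tested). Of the genes called higher in the wild-type libraries 87.9% were called higher here, which is 84.7% of those called higher here, and of those called lower 92.2%, which is 75.4% of those called lower here. All 30 of the largest differences named above were called in the same direction, against 34.4% of all genes called higher and 29.2% lower. These 30 had been chosen for large differences without overlap in the Tfe3WT libraries. CC chemokines gave 8 higher and 0 lower of 11, CXC chemokines 6 and 1 of 7, NRF2 targets 0 and 17 of 20, the stress response 0 and 21 of 23 and glycolysis 0 and 17 of 20. The inflammasome and interleukin-1 list gave 14 higher and 0 lower of 19. A test of the difference between the genotypes called 2 of 12796 genes (0.0156%), both with a more negative silica minus MSUc difference in Tfe3KO, with 1693 at an unadjusted p under 0.05. Spi1, which encodes the macrophage factor PU.1, stood at 293, 282 and 281 TPM with silica and 434, 442 and 454 TPM with MSUc in Tfe3WT, and at 274.8, 243 and 255 TPM against 552.5, 583 and 545 TPM in Tfe3KO (difference of differences -0.49 ± 0.07, limma adjusted p = 0.0081). Zbtb7b, a zinc finger factor gene, gave -0.53 ± 0.08 (adjusted p = 0.026). Neither passed after median-of-ratios scaling (adjusted p = 0.0675 for both) or when only the 4 groups compared were fitted (adjusted p = 0.216 for both), with differences of -0.43 and -0.47 in the first case and unchanged ones in the second. Zbtb7b also lost its call in 6 of 12 fits that left out 1 library (without replicate 2 of Tfe3WT MSUc, 3 of Tfe3WT silica, and 2 or 3 of Tfe3KO MSUc and of Tfe3KO silica, at adjusted p-values of 0.0581 to 0.121), with differences of -0.48 to -0.55. Tfe3 itself gave -0.60 ± 0.12 (limma adjusted p = 0.0698). With the replicate number as a block within each genotype, chosen after seeing the data, 40 genes were called. Of these 20 had a more positive and 20 a more negative difference in Tfe3KO. The fit that called 2 genes has no such block, although same-numbered Tfe3KO libraries deviated together (r 0.383, 0.235 and 0.204). The Tfe3KO libraries numbered 1 stood apart in 2 sex-linked genes, with Xist at 57.1 to 115 TPM and the Y-linked Ddx3y at 1.21 to 1.96 TPM, while in Tfe3KO libraries numbered 2 and 3 Xist was at most 6.28 TPM and Ddx3y at least 18.4 TPM. Without those libraries the Tfe3KO comparison called 7674 genes and the genotype difference 5.

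The second table gave 63.7% of 12314 genes called, 3735 higher and 4105 lower with silica (30.3% and 33.3%), from 2 silica and 3 MSUc libraries. Which direction held more calls depended on the setting: 4078 were higher and 3926 lower after median-of-ratios scaling, 4270 and 3647 with limma-voom on the recovered reads, and 3274 and 2984 without silica replicate 2. The 2 silica libraries differed more from each other than any other pair of a group in that table (chi-square per degree of freedom 23.5, against 3.27 to 9.67). Of the genes called higher in the Tfe3WT libraries, 77.4% were called higher here (85.0% of those called higher here) and 28 were called lower, and of those called lower 92.6% were called lower (68.7% of those called lower here) and 3 higher. Fold differences of the 12096 genes tested in both correlated with a Pearson r of 0.83, given as a description across genes, which are not independent. NRF2 targets gave 1 higher (Txn1) and 18 lower of 20, the stress response 0 and 18 of 22, glycolysis 0 and 16 of 20 and CC chemokines 7 and 1 of 11. The inflammasome and interleukin-1 list, with 0 lower in the Tfe3WT libraries, gave 9 higher and 2 lower of 19 here. Lists with calls both ways in the Tfe3WT libraries went either way here. V-ATPase subunits gave 10 higher and 5 lower of 18, phagocytic and crystal receptors 10 and 6 of 16 and lysosomal membrane proteins 9 and 8 of 19. Some others were mostly lower. Immediate early factors gave 1 higher and 23 lower of 28, NF-kappaB subunits and brakes 2 and 10 of 15, and cytokines and growth factors 1 and 9 of 18. Nfkbiz did not pass here (0.63 ± 0.29, limma adjusted p = 0.077). Gclc stood at 35.6 and 29.0 TPM with silica and at 260.0, 269 and 286 TPM with MSUc. Ccl2 stood at 344 and 449.7 TPM against 70.6, 58.4 and 40.03 TPM, and Ccl7 at 423 and 721 TPM against 79.4, 73.2 and 50.1 TPM.

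The CXC chemokines were not called higher there. Of 7 tested, 0 were called higher and 1 lower (Cxcl3), with a median of 0.08. Cxcl2 stood at 428 and 458 TPM with silica and at 460.5, 479 and 389 TPM with MSUc (0.01 ± 0.31, adjusted p = 0.99), and the groups overlapped. Cxcl1 stood at 42.7 and 55.2 TPM against 33.6, 37.2 and 39.1 TPM (0.40 ± 0.38, adjusted p = 0.38). Il1b (1.11 ± 0.65, adjusted p = 0.15), Tnf (0.40 ± 0.31, adjusted p = 0.27), Ptgs2 (1.04 ± 0.44, adjusted p = 0.056) and Il6 (0.73 ± 0.40, adjusted p = 0.14) did not pass either, and of the 15 genes highest in the Tfe3WT libraries, 10 were called higher here and 0 lower. Neutrophil markers summed to 262 to 364 TPM with silica and 57.4 to 126 TPM with MSUc in that table, with 4 called higher of 6 tested. The tables were normalised separately and the labels do not give their exposure times, so the difference between them was not tested.

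**Figure D4:**
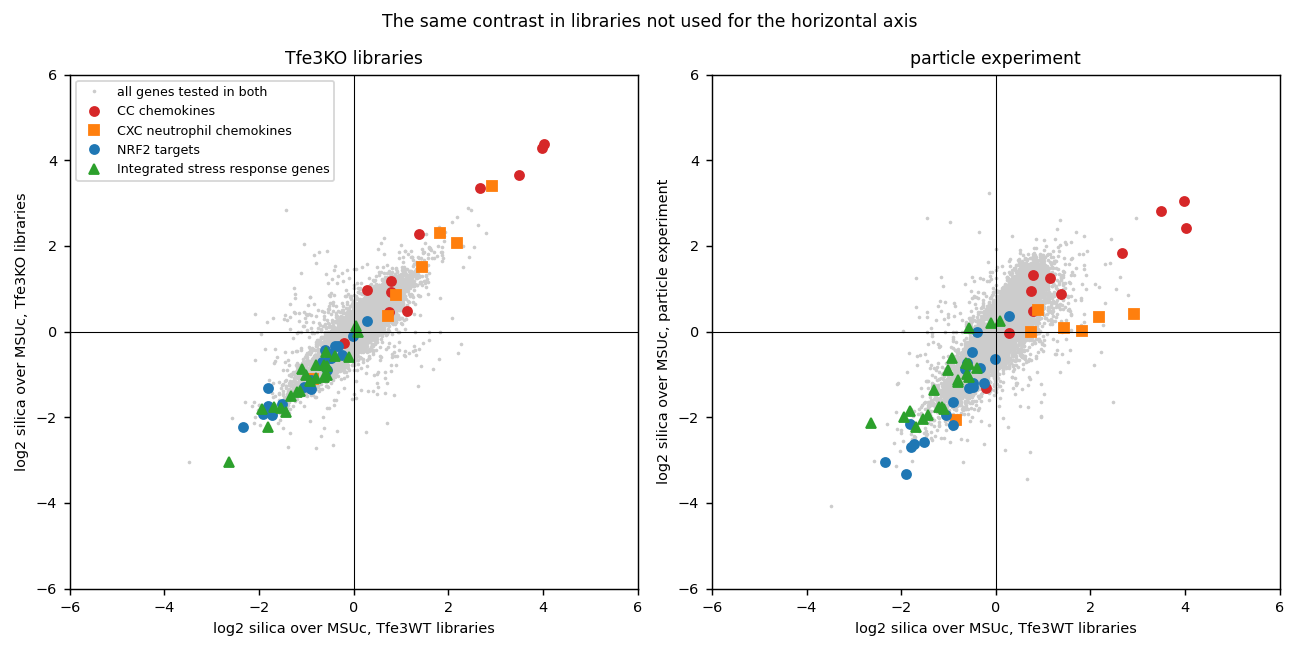
Log2 difference of silica over MSUc in the wild-type libraries (horizontal) against the same difference in the Tfe3KO libraries (left) and in the second table (right), for all genes tested in both and for 4 lists. In the right panel 7 of 11 CC chemokines were called higher and 1 lower, 18 of 20 NRF2 targets were called lower and 1 higher, and the CXC chemokines had a median of 0.08.

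Calcium pyrophosphate (CPPD) crystals, at the same mass in the same table, lay nearer to MSUc for some genes and nearer to silica for others. Ccl4 stood at 212, 277 and 176 TPM with CPPD, nearer to MSUc than to silica, and Ccl7 at 19.1, 25.8 and 12.5 TPM, below both. Hmox1 stood at 4369, 4372 and 5144 TPM and Gclc at 130.2, 155 and 185 TPM, both far above silica. Cxcl3 was highest with CPPD of the 3 particles, at 30.2, 63.3 and 49.4 TPM. With CPPD Tnf, at 318, 402 and 331 TPM, and Casp1, at 133, 143 and 137 TPM, were above both silica and MSUc. Tlr1 stood at 41.6, 42.4 and 44.6 TPM, nearer to silica than to MSUc. Vegfa, at 102, 97.6 and 123 TPM, lay within the range of the silica libraries. These levels are descriptions and were not tested here.

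Genes with longer transcripts tended to be lower with silica. Across genes, which are not independent, the Spearman rho of the log2 difference with transcript length was -0.13 in the Tfe3WT libraries, -0.08 in the Tfe3KO libraries and -0.12 in the second table. The median transcript length was 794 bases for CC chemokines, 2086.5 for NRF2 targets and 2705.5 for all genes tested. The part of length in the differences between lists was not tested. A check of promoter GC content is void, because only 68.1% of tested genes have a promoter in the sequences used.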

How the data were processed

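RNA-seq reads were processed with STAR and HOMER on mm10, per the submitters' processing notes, which give no versions. No source used here names the unit. Multiplied by transcript length, the authors' deposited values gave whole reads (within 0.15) for at least 99.97% of values, which TPM and RPKM share. As RPKM they would put 123% to 154% of a library's reads on the kept transcripts, so they were taken as TPM, of which the kept transcripts (1 per gene) sum to 528079 to 556652 per library. The plan assumed counts, so its fallback was used, limma on log2(TPM + 1) with trend, all groups of a table in 1 fit, two-sided, with Benjamini-Hochberg adjustment, and checked on simulated data. In the simulation far fewer genes changed than were called here, only in the Tfe3WT silica group, and replicates were not paired. It therefore does not cover wide shifts or pairing. Groups followed titles. No libraries of a group were copies (24 and 11 pairs compared). Members and lists were chosen with earlier results of these data known. Same-numbered Tfe3KO libraries deviated together (r 0.383, 0.235 and 0.204), and Tfe3WT ones hardly did (0.036, 0.131 and 0.036). The main fits hold no term for the replicate number, so they leave out any such pairing, which enters only the alternatives with a block. Named genes were the 15 highest and 15 lowest with a mean of 5 TPM or more, an absolute log2 difference of 1 or more and no overlap (no predicted or small RNA genes, no transcripts under 300 bases), the 4 smallest p-values per list, interaction genes and 13 fixed genes. Other list members were named after their values were seen. Alternatives changed the pseudocount, filter, scaling, groups fitted, replicate block or library set, or used limma-voom on recovered reads. Also, 1 column without a labelled sample was not used.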

Additional observations from a re-analysis of the deposited data

Results flagged for a closer look

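Spi1 and Zbtb7b were the 2 genes called in the main fit when the silica minus MSUc difference was tested between the genotypes. With the replicate number as a block within each genotype 40 genes were called. Neither Spi1 nor Zbtb7b passed after median-of-ratios scaling (limma adjusted p = 0.0675 for both) or with the compared groups alone (limma adjusted p = 0.216 for both). The change was -0.49 for Spi1 (limma adjusted p = 0.0081) and -0.53 for Zbtb7b (adjusted p = 0.026) in log2 units, Tfe3KO minus Tfe3WT. In the particle experiment both were lower with silica than with MSUc (-1.13 and -0.85). That experiment holds no Tfe3KO libraries, so it cannot repeat the difference between the genotypes.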

How the results depend on the processing

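The count of genes differing between silica and MSUc in the wild-type libraries was 7301 and stayed within 1.5 times of that under all 17 alternatives. Leaving out 1 library at a time gave 6515 to 6841 genes (3681 to 4036 higher and 2702 to 2919 lower), 7597 to 7986 in the Tfe3KO libraries and 6258 to 8044 in the second table. With the replicate number as a block 7625 genes were called in the Tfe3WT and 8400 in the Tfe3KO libraries, 7654 in the second table and 3 between genotypes, each within 1.5 times of the count without it. With median-of-ratios scaling 47.1% of calls were higher, against 58.1%, and limma-voom on the recovered reads gave 63.8%. The test of the genotype difference called 2 genes, and 5 with a pseudocount of 0.1, 4 with a minimum of 5 TPM, 4 with median-of-ratios scaling, 0 with the compared groups alone (1588 at an unadjusted p under 0.05), 5 with limma-voom, 1 to 23 with a library left out (23 without Tfe3WT silica replicate 2, 13 without Tfe3WT MSUc replicate 3, 7 without Tfe3KO MSUc replicate 1, 5 without Tfe3KO silica replicate 1, and 1 without replicate 2 of Tfe3WT MSUc, 2 or 3 of Tfe3KO MSUc, 3 of Tfe3WT silica, or 2 or 3 of Tfe3KO silica), 5 without the Tfe3KO libraries numbered 1 and 40 with the replicate block within genotype, both chosen after seeing the data. The cause was not tested. Of 139 named genes called 134 kept the call under every alternative and none changed sign. Cmpk2, Stat2, Cxcl10, Top2a and Csf1r lost it in at least 1. Cell cycle genes called higher ranged from 3 to 13. Depth limits genes near 1 TPM most, with 8.85 M reads or more per library in the first table and 4.32 M or more in the second.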
